A study of Arabidopsis thaliana with 8 samples.

Results

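Genes of tetrapyrrole synthesis and chlorophyll breakdown were followed through the 8 RNA-seq libraries of this Arabidopsis thaliana study. The set of 35 genes was listed by locus, but its members were chosen with earlier results of these data known. They encode the enzymes and regulators that lead from glutamyl-tRNA to chlorophyll and heme, without the protochlorophyllide oxidoreductases (PORs), and the enzymes that take chlorophyll apart. Of these, 32 had a row of their own among the 26987 gene entries of each full table. They comprised 12 of 13 genes of the early steps, 11 of 11 of the chlorophyll branch, 0 of 2 of the heme branch and 9 of 9 of chlorophyll breakdown. HEMG1 and the ferrochelatase genes FC1 and FC2 were each merged with a locus on another chromosome into 1 entry, so no value is given for them and the heme branch was not measured. The entries of HEMC, CHLI2, FLU and PAO shared their deposited position with a neighbouring entry, and how reads were divided between such genes was not tested.

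Tetrapyrroles are the ring-shaped pigments of plastids. Glutamyl-tRNA is turned into 5-aminolevulinic acid (ALA), several ALA molecules are joined and closed into a ring, and insertion of magnesium into protoporphyrin IX sends the ring to chlorophyll, whereas insertion of iron sends it to heme. Free intermediates are phototoxic, so seedlings in the dark keep the pathway in check and stop at protochlorophyllide until light lets POR act. Chlorophyll is later dismantled by removal of magnesium and of the phytol tail, followed by opening of the ring, a route that is prominent in senescent leaves.

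RNA was taken from whole seedlings, with 1 library per condition and no replicate, so every ratio below compares 2 libraries and carries no test. DAYi seedlings, which are of the Col-0 ecotype and carry a dexamethasone (DEX)-inducible RNAi construct against DAY (AT3G51140), grew on plates with ethanol (EtOH) or 1 µM DEX. Col-0 wild type and bri1-116, a null allele of the brassinosteroid receptor gene BRI1, were the other pair. Each of the 4 was grown either for 5 days in the dark or for 9 days in long days, so light and age differ together. The labels of the DAYi libraries carry the numbers 3 with EtOH and 25 with DEX, and if these name plant lines, line and treatment cannot be told apart.

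In a check of the labels, DAY stood at 6.88 FPKM (fragments mapped, normalised to transcript length and library depth) with DEX and 56.9 FPKM with EtOH in the light. In the dark the order was opposite, with 34.8 FPKM in the library labelled DEX and 13.4 FPKM with EtOH, so that library is called by its label throughout. Titles and genotype fields of the dark Col-0 and bri1-116 libraries contradict each other. The titles were followed, and results are also given with both libraries exchanged. BRI1 itself was at 42.5 FPKM in the dark library titled bri1-116 and 70.6 FPKM in that titled Col-0, 1.66-fold lower, and at 33.3 and 58.1 FPKM in the light pair, 1.75-fold lower. The title of the light bri1-116 library starts with "new", with no explanation in the sources used here. Light and dark libraries, and the DAYi and the Col-0 pair, come from separate tables whose FPKM may have been scaled apart, and differences set across tables include any such difference. The EtOH and Col-0 libraries were close for these genes all the same: in the dark 0 of 32 were beyond 2-fold upward with EtOH and 0 downward, where 2.19% and 2.22% of all gene entries were. In the light the counts were 0 higher and 1 lower (SGR2), with 1.96% and 2.18% of all entries. With the dark Col-0 and bri1-116 libraries exchanged, the dark counts for EtOH against Col-0 become 1 higher and 17 lower. Shares over all entries were not computed for that exchange.

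The cell types of a whole seedling can shift between libraries, and in such bulk samples fewer cells of a type and less RNA per cell cannot be told apart. Over 3 green tissue genes (RBCS1A, CAB3 and LHCA1) the summed level in the dark was 2216 FPKM in Col-0, 2613 in DAYi with EtOH, 644 in the library labelled DEX and 6253 in bri1-116. In the light it was 38573, 35946, 7420 and 17635 FPKM, in the same order. All 3 were beyond 2-fold lower in both DAYi comparisons, all 3 higher in bri1-116 in the dark and 2 of 3 lower in bri1-116 in the light. The 6 root hair genes, at a summed 2.84 and 3.14 FPKM in dark Col-0 and DAYi with EtOH, summed to 12.7 FPKM in dark bri1-116 and 40.9 FPKM in the dark library labelled DEX, with every one of them beyond 2-fold in both, and 5 of 5 endodermis genes were lower in both. Of 3 shoot epidermis genes 2 were lower in each DAYi comparison, summing to 156 against 490 FPKM in the dark and 190.1 against 438 in the light, with PDF1 8.09-fold and 4.35-fold lower and ATML1 3.30-fold lower in the light. Of 2 phloem genes, APL was 3.51-fold higher with the DEX label in the dark and 3.19-fold higher in the light, and SUC2 2.64-fold higher in the dark. Of 3 guard cell genes 2 were found (FAMA and MYB60), and 0 were beyond 2-fold in any of the 4 comparisons. They summed to 15.4, 15.0, 17.2 and 17.0 FPKM in the dark and 27.3, 27.2, 19.5 and 30.3 FPKM in the light, in the order used for green tissue. No marker found in these lists was at 0 in any library. Their part in the results below was not tested.

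Among the 4 comparisons of DEX with EtOH and of bri1-116 with Col-0, 2 counts stood furthest from those over all gene entries. They were the genes that were lower in light DAYi with DEX and those that were higher in dark bri1-116. In dark-grown seedlings 5 of 32 genes stood more than 2-fold below EtOH in the library labelled DEX, while 12.2% of all gene entries were, and 0 of 32 were higher, against 9.36% of entries. That lower share, 15.6%, was near the one over all entries. In dark bri1-116, 16 of 32 were more than 2-fold higher than in Col-0 and 1 was lower, against 11.2% and 9.01% of entries. All 5 genes that were lower in the library labelled DEX (GUN4, CHL27, DVR, CHLP and CLH1) were among the 16 that were higher in bri1-116. Over the 21799 entries above 0 in the 4 dark libraries, 1.86% were lower in the library labelled DEX and higher in bri1-116, and 3.94% were lower in both, where 0 of the 32 genes were. In the light DAYi with DEX had 20 of 32 genes more than 2-fold below EtOH and 1 above, against 16.3% and 12.1% of entries. Light-grown bri1-116 had 4 of 32 lower and 0 higher, against 7.82% and 6.52%, so its share of lower genes was close to that of all entries. HEMA1, CHLI2 and DVR were lower in both light comparisons, as were 3.78% of the 21644 entries above 0 in the 4 light libraries. That overlap of 3 of 32 depended on the control and the scale: with DAYi EtOH in place of Col-0, light bri1-116 had 2 genes lower (HEMA1 and CLH1) and 1 higher, and with FPKM rescaled to their sum without AT2G01021, which shifts the log2 ratios of light bri1-116 by 0.40, it had 1 lower (CLH1) and 1 higher. The same 2 changes left 21 and 16 genes lower in light DAYi with DEX and 17 and 16 higher in dark bri1-116. Shares over all gene entries under these 2 changes were not computed. With the dark Col-0 and bri1-116 libraries exchanged, the dark counts for bri1-116 become 1 higher and 16 lower, and GUN4, CHL27, DVR, CHLP and CLH1 would be lower in both dark comparisons.

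**Figure D1:**
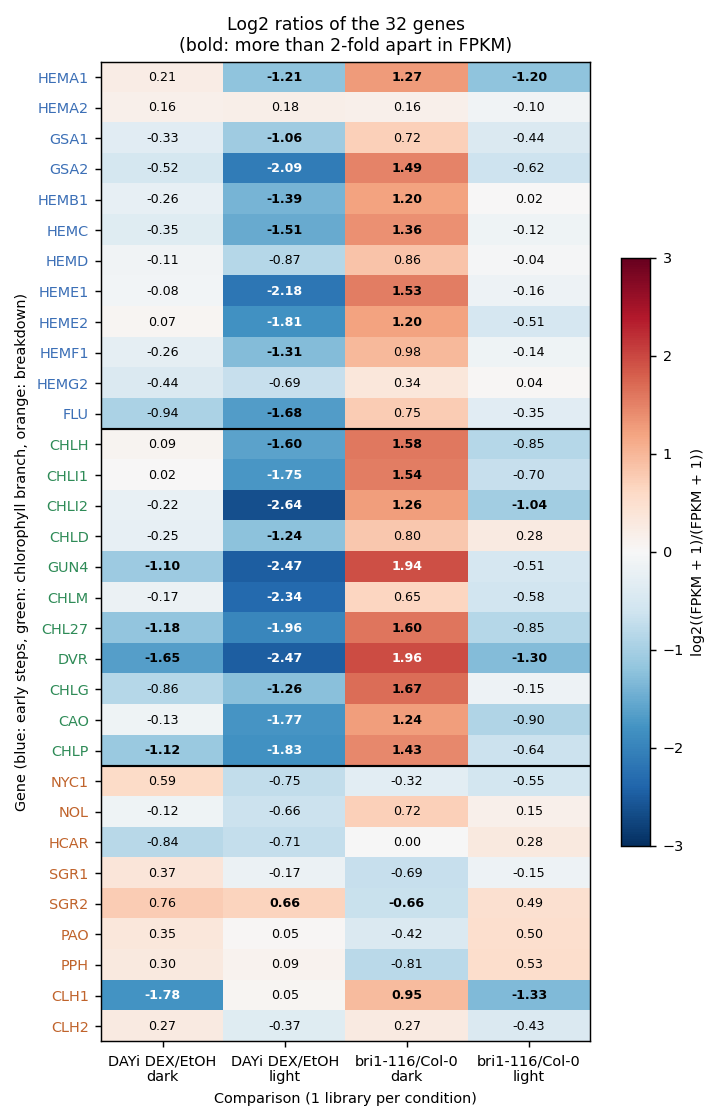
Log2((FPKM + 1)/(FPKM + 1)) of each of the 32 genes (rows, in pathway order) in the 4 comparisons (columns); bold values are more than 2-fold apart in FPKM. The chlorophyll branch is blue in the light DAYi column for 11 of 11 genes and red in the dark bri1-116 column for 11 of 11, while the 9 breakdown genes are mixed.

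By group, the 23 synthesis genes held 20 of the 20 that were lower in light DAYi with DEX and 15 of the 16 that were higher in dark bri1-116, CLH1 of the breakdown genes being the other one. In the dark DAYi comparison 0 of 12 early genes, 4 of 11 chlorophyll genes and 1 of 9 breakdown genes were lower. The median log2((FPKM + 1)/(FPKM + 1)) of the early steps was -0.26 in the dark library labelled DEX, -1.35 in light DAYi, 1.09 in dark bri1-116 and -0.15 in light bri1-116. That of the chlorophyll branch was -0.25, -1.83, 1.54 and -0.70, and that of breakdown 0.30, -0.17, -0.32 and 0.15, in the same order. Over all gene entries above 0 the medians were 0.00, 0.02, -0.01 and -0.02. Among the 4 dark libraries, bri1-116 had the highest FPKM for 23 of 23 synthesis genes (12 early and 11 of the chlorophyll branch), and the library labelled DEX the lowest for 9 of 12 early and 9 of 11 chlorophyll genes. Over all entries above 0 in those 4 libraries, bri1-116 was highest for 31.0% and the library labelled DEX lowest for 30.8%. Among the 4 light libraries DAYi with DEX was lowest for 11 of 12 early genes, 11 of 11 chlorophyll genes and 5 of 9 breakdown genes, against 37.1% of entries.

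**Figure D2:**
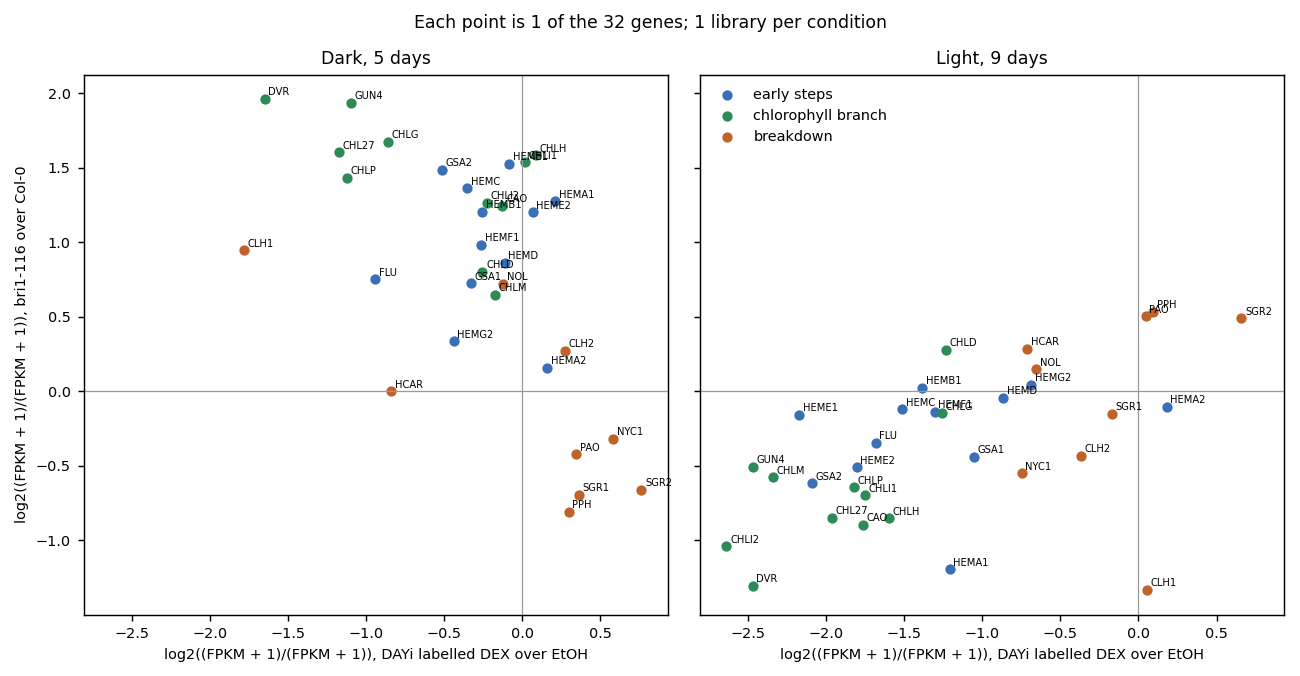
Log2((FPKM + 1)/(FPKM + 1)) of DAYi labelled DEX over EtOH (x axis) against that of bri1-116 over Col-0 (y axis), 1 point per gene, in the dark (left) and in the light (right). In the dark the synthesis genes lie above 0 on the y axis and most lie left of 0 on the x axis, while in the light most lie left of and below 0; DVR is at -1.65 and 1.96 in the dark and at -2.47 and -1.30 in the light.

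The early steps begin with glutamyl-tRNA reductase, which makes the first intermediate committed to tetrapyrroles and is encoded by HEMA1 and HEMA2. HEMA1 (AT1G58290, chromosome 1 from 21623726 to 21626200) had 69.6 FPKM in Col-0, 53.3 in DAYi with EtOH, 61.9 in the library labelled DEX and 170 in bri1-116 in the dark. In the light it had 338, 322, 138 and 147 FPKM in the same order. Only bri1-116 stood apart in the dark, at 2.44-fold of Col-0, and in the light DAYi with DEX and bri1-116 were both low, 2.32-fold and 2.30-fold below their controls. HEMA2 (AT1G09940, chromosome 1 from 3236995 to 3239554), the form known from roots and non-green tissue, lay between 17.5 and 22.0 FPKM in the 4 dark libraries. Its light values were between 9.47 and 10.9 FPKM. No pair of libraries within a light condition was more than 2-fold apart for HEMA2, and the FPKM ratio of HEMA1 to HEMA2 therefore moved with HEMA1. That ratio was 3.55, 3.05, 3.15 and 7.72 in dark Col-0, DAYi with EtOH, DAYi labelled DEX and bri1-116, and 32.6, 34.0, 12.7 and 15.4 in the light.

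Glutamate-1-semialdehyde aminotransferase, which completes ALA, is encoded by GSA1 and GSA2, and the second form moved more. GSA1 (AT5G63570, chromosome 5 from 25451875 to 25453841) had 43.3, 42.9, 33.9 and 72.2 FPKM in dark Col-0, DAYi with EtOH, DAYi labelled DEX and bri1-116. The light values were 123, 97.1, 46.2 and 90.6 FPKM, of which DAYi with DEX was 2.10-fold below EtOH. GSA2 (AT3G48730, chromosome 3 from 18049614 to 18051702) had 29.3, 28.9, 19.9 and 83.9 FPKM in the dark and 169, 136, 31.1 and 110.0 FPKM in the light. It was 2.87-fold higher in dark bri1-116 and 4.36-fold lower in light DAYi with DEX. GSA2 was thus below GSA1 in 4 of the 8 libraries, namely dark Col-0 and both dark DAYi libraries at ratios of 0.676, 0.673 and 0.586 and light DAYi with DEX at 0.674, and above it in the other 4, at 1.16 to 1.40.

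The enzymes that turn ALA into protoporphyrin IX followed in the same directions. HEMB1 (ALA dehydratase), HEMC (porphobilinogen deaminase), HEME1 and HEME2 (both uroporphyrinogen III decarboxylases) were 2.32-fold to 2.93-fold higher in dark bri1-116 and 2.65-fold to 4.66-fold lower in light DAYi with DEX. HEME1 (AT3G14930, chromosome 3 from 5020570 to 5022959) was the most changed of them. Its dark values were 37.5 FPKM in Col-0, 35.02 in DAYi with EtOH, 33.0 in the library labelled DEX and 109.8 in bri1-116, and its light values were 129, 119, 25.7 and 115 FPKM. HEME2 (AT2G40490, chromosome 2 from 16912845 to 16915177) had 48.3, 48.6, 51.0 and 112 FPKM in the dark and 212, 186, 52.5 and 148 FPKM in the light. For both genes 3 dark libraries lay close together with bri1-116 above them, and 3 light libraries lay together with DAYi with DEX below them.

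HEMF1 (coproporphyrinogen III oxidase) stood at the threshold in dark bri1-116, at 1.99-fold higher, and was 2.50-fold lower in light DAYi with DEX. HEMD (uroporphyrinogen III synthase) and HEMG2 (a protoporphyrinogen oxidase) passed 2-fold in none of the 4 comparisons, with HEMD at 1.90-fold lower in light DAYi with DEX. FLU, a negative regulator of glutamyl-tRNA reductase activity, moved in the same direction as HEMA1 in the light: it was 3.27-fold lower in light DAYi with DEX (37.0 against 121 FPKM) and 1.95-fold below EtOH in the dark (33.5 in the library labelled DEX, 65.3 with EtOH).

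The chlorophyll branch opens with magnesium chelatase, formed by the CHLH, CHLI and CHLD subunits and stimulated by GUN4. CHLH had 65.7, 45.9, 48.9 and 199 FPKM in dark Col-0, DAYi with EtOH, DAYi labelled DEX and bri1-116, and 916, 788, 260.0 and 507 FPKM in the light. It was 3.03-fold higher in dark bri1-116 and 3.03-fold lower in light DAYi with DEX. CHLD stayed within 2-fold in dark bri1-116 (1.76-fold higher) and was 2.39-fold lower in light DAYi with DEX.

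The CHLI subunit has a major and a minor gene. CHLI1 (AT4G18480, chromosome 4 from 10201672 to 10203469) had 75.4, 67.9, 68.8 and 221 FPKM in the dark and 661, 548, 162 and 407 FPKM in the light, in the order Col-0, DAYi with EtOH, DAYi labelled DEX and bri1-116. CHLI2 (AT5G45930, chromosome 5 from 18628007 to 18630706) had 18.5, 16.4, 13.9 and 45.9 FPKM in the dark and 126, 102, 15.6 and 60.7 FPKM in the light. Both were higher in dark bri1-116, by 2.93-fold and 2.48-fold. In light DAYi with DEX, CHLI2 was 6.57-fold lower, the largest decrease among the 32 genes in that comparison, and CHLI1 was 3.39-fold lower. The ratio of CHLI1 to CHLI2 was 5.36 with EtOH and 10.4 with DEX in the light, and between 4.07 and 4.94 in the 4 dark libraries.

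GUN4 (AT3G59400, chromosome 3 from 21948717 to 21949710) had 32.1, 25.8, 11.52 and 126 FPKM in dark Col-0, DAYi with EtOH, DAYi labelled DEX and bri1-116. In the light it had 447, 434, 77.4 and 314.1 FPKM. The 2 control libraries were close in both conditions, the library labelled DEX was 2.24-fold lower in the dark and DAYi with DEX 5.61-fold lower in the light, and bri1-116 was 3.92-fold higher in the dark and 1.42-fold lower in the light.

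Later enzymes of the branch contain the other genes that differed in both DAYi comparisons. CHL27 (AT3G56940, chromosome 3 from 21076505 to 21079856) encodes a subunit of the cyclase that forms the fifth ring, and had 246, 219, 96.1 and 749 FPKM in the dark and 2546, 2370, 607 and 1415 FPKM in the light. CHLP (AT1G74470, chromosome 1 from 27991165 to 27993006), the geranylgeranyl reductase that supplies phytol, had 652, 613, 281 and 1759 FPKM in the dark and 1472, 1367, 385 and 942 FPKM in the light. These 2 genes had the highest FPKM of the 32 in 7 of the 8 libraries, and in the dark library labelled DEX CHLM and NYC1 stood between them. The dark library labelled DEX was 2.27-fold below EtOH for CHL27 and 2.18-fold for CHLP, and dark bri1-116 was 3.04-fold and 2.70-fold above Col-0. In dark bri1-116 CHLP stood above every light library.

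DVR (AT5G18660, chromosome 5 from 6220781 to 6222228), the divinyl reductase that reduces a vinyl side chain of the ring, differed the most of the synthesis genes in the dark. It had 10.05 FPKM in Col-0, 10.5 in DAYi with EtOH, 2.68 in the library labelled DEX and 42.0 in bri1-116, 3.93-fold lower and 4.18-fold higher than the respective controls. Its light values of 154, 117, 20.3 and 61.9 FPKM made it one of the 3 genes that were lower in both light comparisons, by 5.78-fold with DEX and 2.49-fold in bri1-116.

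CHLM (AT4G25080, chromosome 4 from 12876846 to 12878651), the magnesium-protoporphyrin IX methyltransferase, moved mainly in the light. It had 164, 139, 123 and 258 FPKM in the dark and 377, 394, 76.9 and 252 FPKM in the light, so that DAYi with DEX was 5.12-fold below EtOH. CHLG (chlorophyll synthase) was 3.26-fold higher and CAO, which makes chlorophyll b, 2.43-fold higher in dark bri1-116, and they were 2.42-fold and 3.45-fold lower in light DAYi with DEX. In the dark library labelled DEX, CHLG was 1.87-fold lower and CAO 1.10-fold lower.

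**Figure D3:**
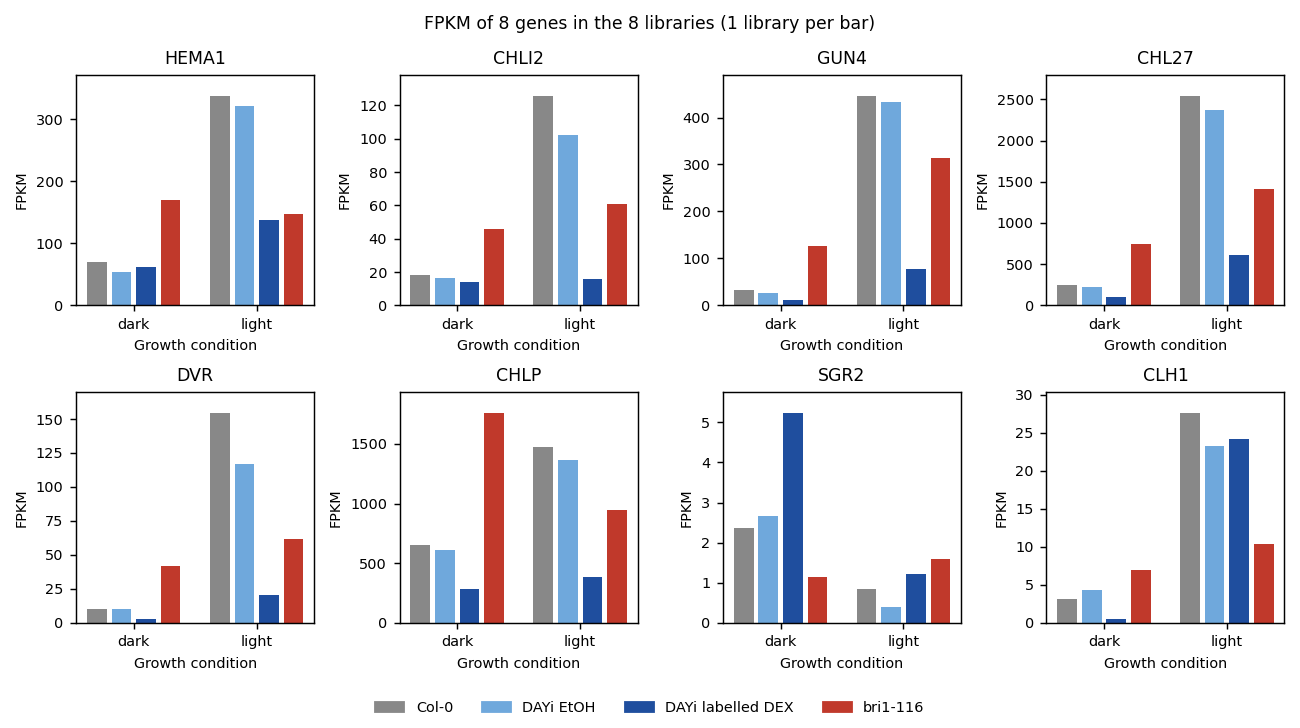
FPKM (y axis, starting at 0 and scaled per gene) of 8 genes in the dark and the light, 1 bar per library. In the dark, bri1-116 is the tallest bar for 7 of the 8 genes and the shortest for SGR2, and in the light DAYi labelled DEX is the shortest for the 6 synthesis genes.

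Promoter sequence of 5 chlorophyll genes is shown because 4 of them (GUN4, CHL27, DVR and CHLP) were lower in both DAYi comparisons and the fifth, CAO, is a gene of the same branch that was within 2-fold in the dark one. Each line gives the 120 bases before the gene start, 5′ to 3′, from the RefSeq annotation of TAIR10.1, with capitals for CACGTG (the G-box, read by bHLH and bZIP factors), CCAATC (a hexamer linked to GLK factors) and GATAAG (the I-box of light-responsive promoters) on either strand. The 3 motifs do not overlap each other here.
GUN4 promoter, chr3:21949797-21949916, minus strand: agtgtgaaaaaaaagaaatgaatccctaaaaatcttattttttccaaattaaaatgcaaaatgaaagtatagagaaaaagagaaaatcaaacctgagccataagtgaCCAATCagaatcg
CHL27 promoter, chr3:21076385-21076504, plus strand: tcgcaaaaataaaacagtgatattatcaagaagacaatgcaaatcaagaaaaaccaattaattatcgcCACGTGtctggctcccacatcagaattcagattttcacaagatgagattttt
DVR promoter, chr5:6222301-6222420, minus strand: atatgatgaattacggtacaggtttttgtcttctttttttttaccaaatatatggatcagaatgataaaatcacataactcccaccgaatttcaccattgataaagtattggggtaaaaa
CHLP promoter, chr1:27991045-27991164, plus strand: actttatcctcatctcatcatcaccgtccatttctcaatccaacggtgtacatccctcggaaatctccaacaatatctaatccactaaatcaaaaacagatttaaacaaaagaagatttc
CAO promoter, chr1:16851272-16851391, minus strand: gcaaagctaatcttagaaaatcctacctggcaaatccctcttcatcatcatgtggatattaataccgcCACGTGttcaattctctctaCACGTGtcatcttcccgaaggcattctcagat

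In the window from 250 bases before to 50 bases after the gene start, CACGTG was found at 6 of 32 genes (18.8%) and in 7.68% of the windows of 27444 protein-coding genes. These were HEMD, CHL27, CAO with 2 copies, NYC1, NOL and SGR2, of which CHL27, CAO and SGR2 were more than 2-fold apart in at least 1 of the 4 comparisons. CCAATC was found at 3 of 32 (GSA2, CHLH and GUN4; 9.38% against 12.3% of all windows) and GATAAG at 6 of 32 (18.8% against 14.6%). DVR and CHLP held none of the 3 in this window, so the 4 genes that were lower in both DAYi comparisons had none of these motifs in common there.

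Light-to-dark ratios give another view of the same libraries, and they share those libraries with the comparisons above. In Col-0, 21 of 32 genes were more than 2-fold higher in the light and 2 were lower (22.9% and 19.1% of entries), and in DAYi with EtOH 22 were higher and 2 lower (21.2% and 19.8%). DAYi labelled DEX had 10 higher and 3 lower (14.9% and 13.2%), and bri1-116 4 higher and 3 lower (15.3% and 12.7%). With FPKM rescaled to their sum without AT2G01021, which lowers the light-to-dark log2 ratios by 0.15 to 0.68, the counts become 15 higher and 4 lower in Col-0, 14 and 4 in DAYi with EtOH, 9 and 4 in DAYi labelled DEX, and 3 and 4 in bri1-116. Shares over all entries after this rescaling were not computed. The chlorophyll branch had a median log2((FPKM + 1)/(FPKM + 1)), light over dark, of 2.98 in Col-0, 3.00 in DAYi with EtOH, 1.62 in DAYi labelled DEX and 0.55 in bri1-116. For the early steps these medians were 1.39, 1.10, 0.04 and 0.02. The Col-0 and bri1-116 medians rest on the titles of their dark libraries and were not recomputed with the libraries exchanged.

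**Figure D4:**
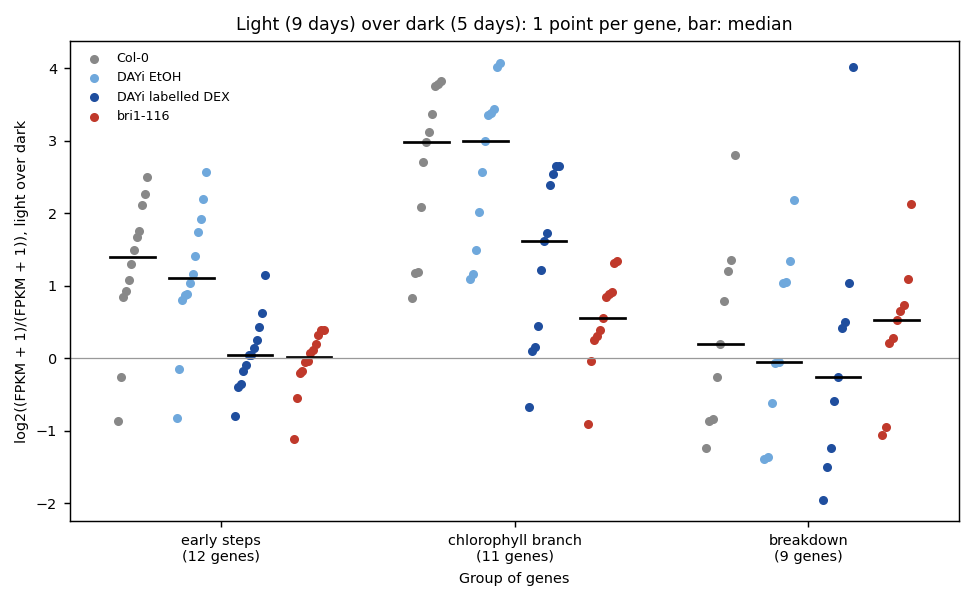
Log2((FPKM + 1)/(FPKM + 1)) of light over dark (y axis) for each gene (points) of the early steps, the chlorophyll branch and breakdown, in Col-0, DAYi with EtOH, DAYi labelled DEX and bri1-116, with the median as a bar. The chlorophyll branch has medians of 2.98 and 3.00 in the control libraries, 1.62 in DAYi labelled DEX and 0.55 in bri1-116. The dark Col-0 and bri1-116 libraries are taken by their titles.

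Levels at both ends lie behind these ratios. Summed over the 11 chlorophyll genes, the level was 1366 FPKM in dark and 7109 in light Col-0, 1226 and 6533 in DAYi with EtOH, 714 and 1750 in DAYi labelled DEX, and 3639 and 4285 in bri1-116. DAYi labelled DEX was below EtOH at both ends and by more in the light. By the titles, bri1-116 was above Col-0 in the dark and below it in the light. With the dark Col-0 and bri1-116 libraries exchanged, Col-0 would go from 3639 to 7109 FPKM and bri1-116 from 1366 to 4285. In that case bri1-116 would be below Col-0 at both ends. CHLH and GUN4, the genes with the largest light-to-dark ratios in DAYi with EtOH (17.2-fold and 16.8-fold), were at 5.32-fold and 6.72-fold in DAYi labelled DEX and at 2.55-fold and 2.50-fold in bri1-116. HEMA1 was 4.87-fold higher in light than in dark Col-0, whereas in bri1-116 the light level was 0.868 of the dark one.

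Chlorophyll breakdown did not move as a group in any of the 4 comparisons. Removal of chlorophyll b begins with the chlorophyll b reductases NYC1 and NOL. NYC1 (AT4G13250, chromosome 4 from 7684156 to 7686876) had 74.8, 71.5, 108 and 59.8 FPKM in dark Col-0, DAYi with EtOH, DAYi labelled DEX and bri1-116, and 41.6, 46.4, 27.2 and 28.1 FPKM in the light. NOL (AT5G04900, chromosome 5 from 1434774 to 1437330) had 9.55, 8.14, 7.40 and 16.4 FPKM in the dark and 17.2, 17.8, 10.9 and 19.1 FPKM in the light. Neither was more than 2-fold apart in the 4 comparisons, but their ratio of NYC1 to NOL spread from 3.64 in dark bri1-116 to 14.6 in the dark library labelled DEX, with 7.83 and 8.78 in dark Col-0 and DAYi with EtOH. HCAR, which completes the return of chlorophyll b to a, was 1.85-fold below EtOH in the dark and 1.78-fold below it in the light.

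Removal of magnesium is the work of the SGR proteins. SGR1 (AT4G22920, chromosome 4 from 12016525 to 12018492) had 20.5, 21.6, 28.1 and 12.3 FPKM in the dark and 23.6, 20.8, 18.3 and 21.2 FPKM in the light, all within 2-fold of the control. SGR2 (AT4G11910, chromosome 4 from 7156252 to 7158042) was low, with 2.37, 2.67, 5.23 and 1.13 FPKM in the dark and 0.847, 0.401, 1.21 and 1.59 FPKM in the light. It was the only one of the 32 genes that was more than 2-fold higher in light DAYi with DEX, by 3.03-fold, and the only one that was lower in dark bri1-116, by 2.09-fold. The lowest of these values, in light DAYi with EtOH, rests on an estimated 25 fragments, for which the exact Poisson interval at 95% is 0.260 to 0.592 FPKM and covers counting error only. Against light Col-0 in place of EtOH, SGR2 was within 2-fold in DAYi with DEX.

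PPH, which removes the phytol tail after magnesium is gone, and PAO, which opens the ring, stayed within 2-fold in all 4 comparisons. PPH was at 24.6, 23.2, 24.9 and 36.1 FPKM in the light and PAO at 41.2, 35.01, 36.2 and 58.8 FPKM, both highest in bri1-116. The chlorophyllase CLH1 (AT1G19670, chromosome 1 from 6803611 to 6805044) had 3.10, 4.36, 0.557 and 6.90 FPKM in the dark, the library labelled DEX being 7.83-fold below EtOH and bri1-116 2.23-fold above Col-0. In the light it had 27.6, 23.2, 24.1 and 10.3 FPKM, and only bri1-116 stood apart, 2.67-fold below Col-0. The 0.557 FPKM stands for an estimated 62 fragments, with an exact Poisson interval at 95% of 0.427 to 0.713 FPKM. CLH2 (AT5G43860, chromosome 5 from 17630450 to 17632312) had 1.32, 1.49, 2.01 and 1.804 FPKM in the dark and 4.93, 4.18, 3.01 and 3.40 FPKM in the light, within 2-fold throughout. CLH1 was below CLH2 in 1 of the 8 libraries, the dark one labelled DEX, at a ratio of 0.277.

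**Figure D5:**
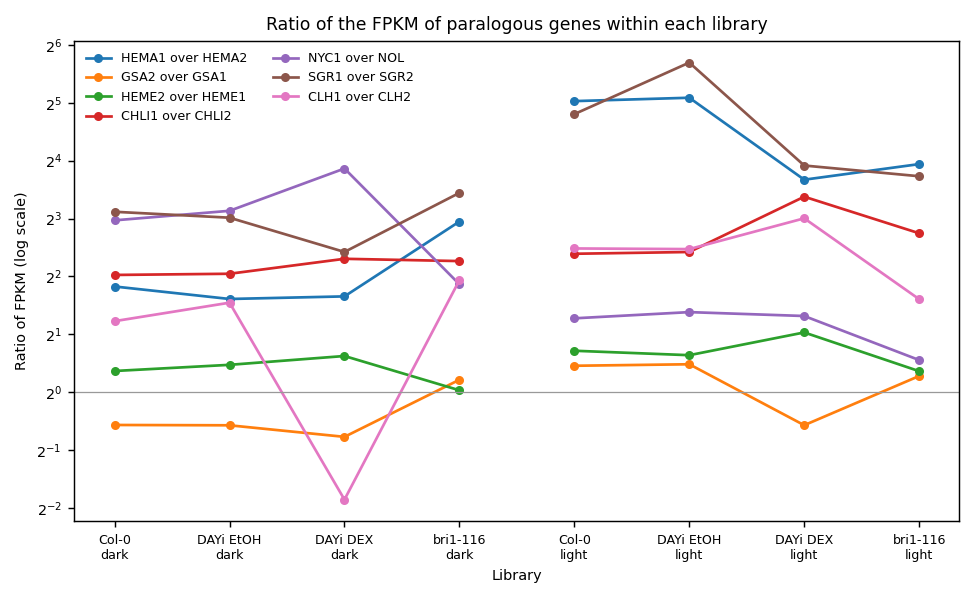
FPKM ratio of 7 pairs of paralogous genes (y axis, log scale) in the 8 libraries (x axis), with the 4 dark and the 4 light libraries joined by separate lines. HEMA1 over HEMA2 is at 32.6 and 34.0 in the light control libraries and at 12.7 and 15.4 in DAYi with DEX and bri1-116, and CLH1 over CLH2 drops to 0.277 in the dark library labelled DEX.

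Markers of leaf senescence were set beside the breakdown genes. SAG12, a defining marker, was at 0.0370 FPKM or less in the 8 libraries and at 0 in 5 of them. SAG29 was at 454 FPKM in light DAYi with DEX and 14.3 FPKM with EtOH, and in that comparison SGR1, PPH and PAO were within 2-fold. In light bri1-116, SAG29 was 7.03-fold lower than in Col-0 (3.56 against 25.0 FPKM). SAG13 was 9.77-fold higher there (3.60 against 0.369 FPKM) and 3.92-fold below EtOH in the dark library labelled DEX (1.55 against 6.09 FPKM). The light control libraries themselves were 3.35-fold apart for SAG13, with 1.23 FPKM in DAYi with EtOH, so its light bri1-116 ratio depends on the control.

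Of 21 other pathway genes listed with the set, 4 were higher and 2 lower in the dark library labelled DEX, 3 higher and 10 lower in light DAYi with DEX, 9 higher and 2 lower in dark bri1-116, and 4 higher and 3 lower in light bri1-116. Over all entries the shares were 9.36% and 12.2%, 12.1% and 16.3%, 11.2% and 9.01%, and 6.52% and 7.82%, in the same order. The PORs, which turn protochlorophyllide into chlorophyllide, ran in the direction of most synthesis genes in the 4 comparisons. From dark to light they did not all do so. In DAYi with EtOH, PORA was 709-fold and PORB 5.14-fold lower in the light, and PORC 25.1-fold higher. Of the 23 synthesis genes, 18 were more than 2-fold higher in the light there. PORA, the form of etiolated seedlings, was 7.77-fold below EtOH in the dark (62.8 in the library labelled DEX, 488 with EtOH) and 3.94-fold higher in dark bri1-116 (1586 against 402 FPKM). It was at 1.96 FPKM or less in every light library. PORB was 12.0-fold lower in light DAYi with DEX, at 10.1 against 121 FPKM. PORC was 8.24-fold lower in light DAYi with DEX (34.2 against 282 FPKM), 3.96-fold lower in light bri1-116 (73.0 against 289 FPKM) and 5.03-fold higher in dark bri1-116 (59.4 against 11.8 FPKM).

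On the heme side, where the ferrochelatases could not be read, the heme oxygenase gene HO4 stood out from its family. HO4 (AT1G58300, chromosome 1 from 21628012 to 21629996) had 0.389, 0.347, 21.2 and 0.0927 FPKM in dark Col-0, DAYi with EtOH, DAYi labelled DEX and bri1-116, and 0.320, 0.0249, 7.36 and 0.235 FPKM in the light. Both DAYi libraries labelled DEX were far above the other 6. HO4 lies 1811 bases from HEMA1, which was within 2-fold in the dark comparison and lower in the light one. HY1, the main heme oxygenase gene, was within 2-fold in all 4 comparisons. TSPO, which encodes a stress-induced membrane protein that binds heme, was 14.6-fold higher in light DAYi with DEX (2.28 against 0.156 FPKM) and 4.31-fold higher in light bri1-116 (1.02 against 0.238 FPKM). CYP89A9, which acts on chlorophyll catabolites, was at 51.6 FPKM in light bri1-116 and 12.9 FPKM in Col-0. HEMA3 and HEMB2 also passed 4-fold, but neither exceeded 0.646 FPKM in any library.

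Regulators known from the literature were counted in the same way, with 13 of 14 found. Light-grown DAYi with DEX had 5 of them more than 2-fold below EtOH and 2 above, beside 16.3% and 12.1% of all entries. Dark bri1-116 had 1 higher and 2 lower (11.2% and 9.01%), and light bri1-116 3 higher and 1 lower (6.52% and 7.82%), among them GNC at 3.31-fold and HY5 at 3.65-fold higher. GLK2, a factor that activates genes of the chlorophyll branch, was 4.78-fold below EtOH in light DAYi with DEX (26.5 against 127 FPKM). Its homologue GLK1 had 18.9 against 55.0 FPKM in the same comparison. Both were within 2-fold of Col-0 in light bri1-116. Of the 13, 0 were more than 2-fold apart in the dark DAYi comparison. GNL, a GATA factor linked to greening, was 8.39-fold higher in light bri1-116 (174 against 20.7 FPKM). In dark bri1-116 it was 7.27-fold higher (2.72 against 0.374 FPKM). Of the 23 synthesis genes, 0 in light and 15 in dark bri1-116 were more than 2-fold higher. GNC and GNL went the other way in light DAYi with DEX, 2.51-fold and 2.77-fold below EtOH. With GLK1, GLK2 and PIF1 they made up the 5 lower regulators of that comparison. The 2 higher ones were NAC046 (17.0 against 4.33 FPKM) and NAP (24.7 against 7.26 FPKM), at 3.93-fold and 3.41-fold. These were also the 2 lower regulators in dark bri1-116, 2.41-fold and 3.23-fold below Col-0.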

How the data were processed

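RNA of whole Arabidopsis seedlings was sequenced on a NextSeq500 from stranded mRNA libraries, 1 per condition. Per the labels, the authors called bases with CASAVA 1.8.2, mapped with TopHat2 2.0.13 on TAIR10 and obtained FPKM from Cuffdiff 2.2.0. The FPKM deposited by the authors in 4 full tables (1 per pair of libraries) were used as they stand. Whether strand was used in counting is not given in the sources used here. Their columns of fold changes and statistics and their sheets of selected genes were not used.

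Genes were matched by locus. Ratios were computed with Python 3.11.15 and pandas 2.3.3. A gene counted as higher or lower when its 2 FPKM values were above 0 and differed more than 2-fold, with no pseudocount. Log2 ratios and medians are of FPKM + 1 and understate differences of low genes. The members and lists were chosen with earlier results of these data known, so no count was tested. Values in 8 libraries are given by rule for members beyond 2-fold in both DAYi and bri1-116 in 1 light condition, beyond 4-fold in any of 4 comparisons, or in a paralogue pair, and for other listed genes beyond 4-fold; further members were added for their roles. FAR1 and KAT1, which were listed too, had no row of their own. Groups came from the titles. Thresholds, scaling, pseudocount, controls and the exchange of 2 dark libraries were varied. The calling rule and the depth estimate were tested on simulated data.

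Depth is not given with FPKM. It was estimated from 2251 intronless genes of at least 900 bases, whose low FPKM were brought nearest to whole fragments with an assumed fragment length of 150 bases. An FPKM of 1 on 1 kb stood for about 44.8 to 112 fragments per library, with 46.4 to 65.4% of low values whole within 0.15 of a fragment, where an unfitted step gives 30%. These depths are rough. The lowest estimate was 25 fragments for SGR2, and 331 or more for all members but SGR2, CLH1 and CLH2. AT2G01021 took 1.51 to 28.6% of summed FPKM per library. Promoter windows came from the RefSeq annotation of TAIR10.1, in which 32 of 32 members overlapped their deposited positions. No protein sequences were compared.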

Additional observations from a re-analysis of the deposited data

Results flagged for a closer look

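Genes were singled out when they were more than 2-fold apart in opposite directions between DAYi and bri1-116 in 1 light condition, or between dark and light in 1 pair. With 1 library per condition the differences below, in log2 of the plain FPKM ratio, were not tested. In the dark, DAYi and bri1-116 differed by 3.13 for GUN4 (-1.17 and 1.97), by 2.79 for CHL27 (-1.19 and 1.61), by 4.04 for DVR (-1.98 and 2.06), by 2.56 for CHLP (-1.12 and 1.43) and by 4.13 for CLH1 (-2.97 and 1.16). All 5 rest on the dark library labelled DEX, whose DAY level goes against the label, and on the titles of the dark Col-0 and bri1-116 libraries. Between dark and light, the bri1-116 ratios differed by 2.49 for HEMA1 (1.29 and -1.20), by 2.36 for CHLI2 (1.31 and -1.05), by 3.38 for DVR (2.06 and -1.32) and by 2.57 for CLH1 (1.16 and -1.42). DVR and CLH1 were the genes singled out in both ways.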

How the results depend on the processing

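No paired analysis was possible because each condition has 1 library. Of 116 recomputed counts 81 stayed within 1.5 times. Shares over all gene entries were computed for the main 2-fold rule only. The counts below therefore have no share beside them, and how far they stand from all entries was not tested. Group medians were recomputed only with a pseudocount of 0.1 and with median-ratio rescaling, both small changes. All 60 moved by less than the difference between the control libraries, by 0.08 at most. There was 1 change of sign (breakdown, light over dark in DAYi with EtOH, from -0.05 to 0.03). Rescaling to the sum without AT2G01021 was not applied to the medians. It shifts log2 ratios by 0.32 in light DAYi and 0.40 in light bri1-116, so the stability of smaller medians there was not tested. A threshold of 4-fold left 1 gene lower in the dark library labelled DEX, 6 lower and 0 higher in light DAYi, 1 higher and 0 lower in dark bri1-116, 0 lower in light bri1-116, and 0 lower between the light controls. For light over dark it left 12 higher and 0 lower in Col-0, 11 and 1 in DAYi with EtOH, 5 and 1 in DAYi labelled DEX, and 1 and 0 in bri1-116. A minimum of 1 FPKM left 0 higher in light DAYi, 0 lower between the light controls, and 1 lower in the light in both Col-0 and DAYi with EtOH. Rescaling to the sum without AT2G01021 gave 1 higher and 1 lower in light bri1-116, 4 lower in the light in Col-0, 14 higher and 4 lower in DAYi with EtOH, and 0 lower between the light controls. With the other control library, an alternative chosen after seeing the data, there were 1 higher in the dark library labelled DEX, 0 higher in light DAYi, and 1 higher and 2 lower in light bri1-116. Exchange of the dark Col-0 and bri1-116 libraries gave 1 higher and 16 lower in dark bri1-116, 11 higher in the light in Col-0 and 20 in bri1-116, and 1 higher and 17 lower in dark DAYi with EtOH against Col-0. Depth limits mainly SGR2, CLH1 and CLH2. The planned comparison of paralogous proteins was not run.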
